A study of Homo sapiens with 4 samples.

Results

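The 48 genes described here encode the machinery that copies DNA and the G1/S regulators that switch it on. They were taken by symbol from the RNA-seq count tables of HGC-27 cells, in which all 48 were present among 25559 gene symbols. HGC-27 (spelled HGC27 in the sample labels) is a human gastric cancer cell line derived from a lymph node metastasis. The comparison was between 2 libraries of control cells, labelled wildtype, and 2 libraries of RUNX3 KO cells, to show how far the RNA of these genes differed once RUNX3, a RUNX family transcription factor, had been targeted. The KO cells carried Cas9 and a guide against an exon of RUNX3 from a lentiviral vector and had passed puromycin selection and single-cell cloning. The number of clones is not stated, the labels name no vector for the control cells, and nothing says whether replicates came from separate cultures, so p-values measure only the spread between these libraries.

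DNA replication is prepared in G1, when the origin recognition complex, CDC6 and CDT1 load the MCM2-7 ring onto DNA. At the G1/S border, cyclin E with CDK2 and the DBF4-CDC7 kinase convert the loaded ring into an active helicase by adding CDC45 and the GINS complex. Many of these genes are transcribed as cells approach S phase, under E2F factors that bind near their start sites. In proliferating tumour lines all of these steps run at each division, so bulk RNA from such a culture mixes cells in every phase of the cycle.

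The stretches below were read from RefSeq (GRCh38.p14). They were chosen to show the E2F-type letters that recurred before the start sites of these genes, and, for MCM10, a stretch with none. Each is 100 bases ending at or before the annotated start, written 5′ to 3′ on the gene's own strand. Capitals mark an exact match, on either strand, to TTTCCCGC, TTTGGCGC, TTTCGCGC or TTTGCCGC (the E2F motif searched here), or to CCAAT, the box bound by NF-Y.
UHRF1, chr19:4909401-4909500, plus strand: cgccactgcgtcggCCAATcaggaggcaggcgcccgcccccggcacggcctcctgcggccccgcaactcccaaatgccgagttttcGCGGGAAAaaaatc
RFC3, chr13:33818048-33818147, plus strand: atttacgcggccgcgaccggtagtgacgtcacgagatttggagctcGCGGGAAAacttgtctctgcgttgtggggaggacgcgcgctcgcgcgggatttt
MCM3, chr6:52284863-52284962, minus strand: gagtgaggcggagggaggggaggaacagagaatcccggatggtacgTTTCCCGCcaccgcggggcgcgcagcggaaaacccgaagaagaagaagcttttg
MCM7, chr7:100101531-100101630, minus strand: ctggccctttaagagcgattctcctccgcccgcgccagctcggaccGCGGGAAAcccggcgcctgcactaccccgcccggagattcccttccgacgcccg
GINS2, chr16:85688955-85689054, minus strand: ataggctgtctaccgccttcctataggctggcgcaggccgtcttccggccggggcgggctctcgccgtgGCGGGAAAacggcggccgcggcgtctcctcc
MCM10, chr10:13161393-13161492, plus strand: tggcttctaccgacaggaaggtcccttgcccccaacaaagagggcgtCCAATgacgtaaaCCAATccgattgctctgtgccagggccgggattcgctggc

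RefSeq windows were matched for 42 of the 48 genes. MCM4, MCM5, GINS4, RPA2, RPA3 and CCNE2 had no entry in the table used here, and 9 genes had more than 1 start. In the 250 bases before a start, 17 of the 42 genes (40.5%) held the E2F letters, against 3.40% of the 27305 genes in the table and 5.76% of 8864 tested genes. CCAAT was found in 25 of 42 (59.5%), against 37.0% of all genes in the table and 42.4% of tested genes. The RUNX letters TGTGGT or TGCGGT were found in 8 of 42 (19.0%), against 19.3% of all genes and 20.3% of tested genes, a share near that of promoters in general. TTTGAA, the core of the CHR element known from G2/M promoters, was found before 1 of the 42, RRM1, against 16.1% of all genes and 11.8% of tested genes. None of these motifs contains another, and a match describes letters in a window, not a bound site.

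The libraries were close in depth. Reads counted on genes came to 11731401 and 11733407 for control and to 11898276 and 12110876 for RUNX3 KO libraries, and the 48 genes had between 209 and 12048 counts in every library, so each was measured well above the filter on low counts. RUNX3 itself had 351 and 308 counts in control cells and 225 and 185 in RUNX3 KO cells, which put its log2 fold change at -0.70 (SE 0.0961, adjusted p = 1.43e-09 in the quasi-likelihood test of edgeR, after Benjamini-Hochberg adjustment). Without RUNX3 KO replicate 2 the RUNX3 value was -0.55 with an adjusted p of 0.0649. RUNX3 RNA was lower and not absent, while the paper reports no RUNX3 protein in its KO cells by immunoblot. Of 12 gastric and epithelial markers, 6 had no count in any library, among them KRT19, CLDN18 and MUC5AC. The summed counts of the 12 were 123 and 133 in control and 190 and 212 in RUNX3 KO libraries. KRT8 had 19 and 11 counts in control and 72 and 81 in RUNX3 KO cells. CDH1 had 15 and 21 against 30 and 32, KRT18 0 and 0 against 2 and 14, and MUC1 87 and 100 against 86 and 85. EPCAM and MUC6 had at most 1 count in any library. The 5 blood cell markers summed to 8 to 21 counts and the 3 endothelial markers to 1 to 4 counts per library.

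Most of the replication genes that differed were slightly higher in RUNX3 KO cells, among them GMNN, CCNE1, RFC5 and 4 MCM subunits, and fewer were lower, namely MCM5, MCM10, CDC45, GINS1, GINS3, LIG1 and RRM1. Of the 48 genes, 20 were higher and 7 lower at an adjusted p under 0.05 (edgeR quasi-likelihood test), and 21 did not pass. Across all 12967 tested genes, 24.5% were called higher, 24.4% lower and 48.9% in either direction. Of the 48, 41.7% were higher, 14.6% lower and 56.25% called in either direction. The median log2 fold change of the 48 was 0.09, beside -0.0021 over all tested genes. These calls rest on a very small spread between replicates, with a biological coefficient of variation of 1.45%. Leaving out RUNX3 KO replicate 1, or RUNX3 KO replicate 2, left 9 genes higher and 3 lower in each case, with the lone KO library assumed to vary like the control pair. Calls over all tested genes fell alongside, to 22.8% and 20.1% in either direction. DESeq2 called 13 higher and 3 lower, beside 28.5% of all tested genes, without ORC1, ORC2, ORC3, CDC6, GINS1, GINS3, RFC1, RFC4, LIG1, RRM1 and RRM2. With an assumed biological coefficient of variation of 10%, chosen after seeing the data, 0 were higher and 1 was lower, MCM5, beside 16.4% of all tested genes. The 7 genes GMNN, MCM2, MCM3, MCM7, RFC5, TYMS and UHRF1, all higher, kept their call in each of 13 other alternatives.

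All of these differences were small. The log2 fold changes ran from -0.49 for MCM5 to 0.43 for CCNE1, and the largest fold either way was 1.41. Under the criteria of the study's methods, which ask for a 2-fold change with an unadjusted p up to 0.05, 0 of the 48 genes passed, against 6.12% of all tested genes (2.11% higher and 4.01% lower). Likewise 0 passed at 1.5-fold, against 13.4%. This was a limit of size, since 30 of the 48 had an unadjusted p under 0.05 in edgeR, and DESeq2 and limma-voom also placed 0 of them past 2-fold. The shares over all tested genes rest on edgeR's scaling and p-values. The paper, with its own normalization, reports more genes past 2-fold in each direction.

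Every one of the 20 higher genes had both RUNX3 KO libraries above both control libraries, and all 7 lower genes had both below. Counting all 48, the CPM values did not overlap for 25 genes with KO higher and 10 with control higher, and overlapped for 13. Over all tested genes 36.3% and 36.4% did not overlap in these directions, 72.7% in all. For the 48, the median log2 difference between replicates was 0.0520 in control and 0.0300 in RUNX3 KO cells, with the largest at PRIM1 (0.179) in control and ORC5 (0.236) in RUNX3 KO cells. With 2 libraries a group, an exact permutation test of any single gene cannot go below p = 0.333. The 48 genes together took 0.729% and 0.734% of gene reads in control and 0.765% and 0.763% in RUNX3 KO libraries. In bulk RNA, more cells in S phase and more of these transcripts per cell cannot be told apart. By a proliferation assay (WST-1), the paper reports slightly slower growth of RUNX3 KO cells than of control cells.

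**Figure D1:**
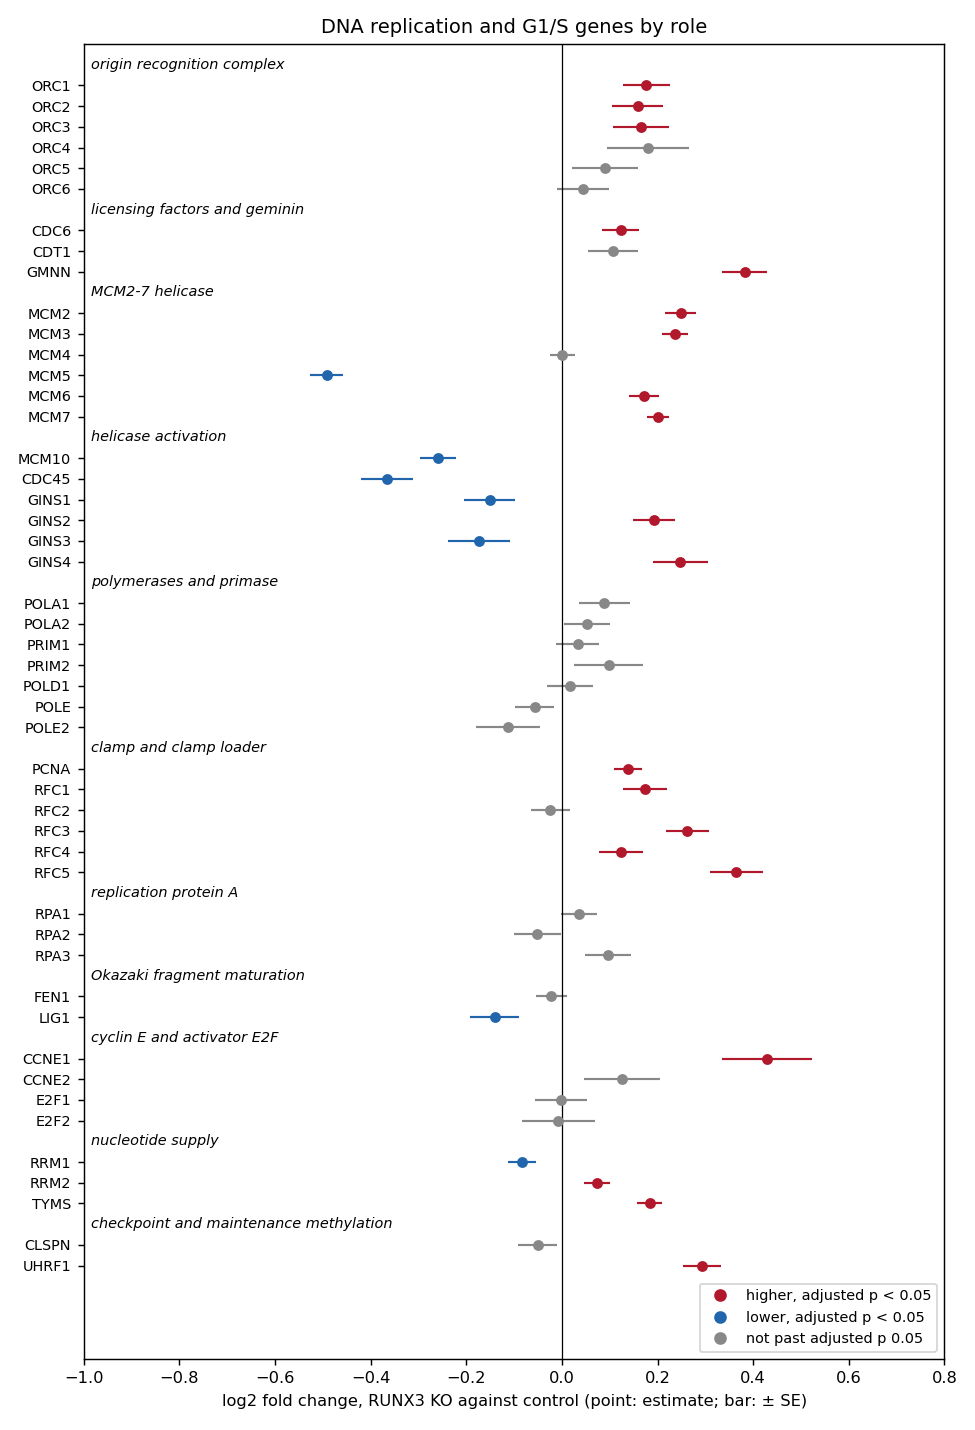
Log2 fold change of each of the 48 genes in RUNX3 KO against control cells, on the horizontal axis, grouped by role, with points as estimates and bars as ± SE. The clamp loader and origin genes lie mostly to the right of 0, the 7 polymerase and primase genes lie close to 0, and MCM5, CDC45 and MCM10 lie farthest to the left.

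The origin recognition complex marks the sites where replication can start. Its 6 subunits all had positive estimates, and 3 of 6 were called higher. ORC1, the subunit made and destroyed with the cell cycle in human cells, had 901 and 944 counts in control and 1038 and 1066 in RUNX3 KO cells (log2 fold change 0.18, adjusted p = 0.00181, edgeR). ORC2 had a log2 fold change of 0.16 and ORC3 of 0.17, with adjusted p of 0.00961 and 0.0136. These 3 calls were small and were lost when a single KO library was left out, with adjusted p between 0.0742 and 0.173; ORC2 was also lost without control replicate 1 (0.135) and ORC3 without control replicate 2 (0.0673). ORC4 had an estimate as large, 0.18, at 273 and 306 against 336 and 326 counts, and did not pass (adjusted p = 0.0752). With a library left out, the log2 fold change of ORC4 ran from 0.10 to 0.26. ORC5 (0.09, adjusted p = 0.289) and ORC6 (0.04, adjusted p = 0.533) did not pass either, and the KO libraries of ORC5 stood apart at 491 and 589 counts.

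Of the licensing factors, which bring the MCM ring to origins, CDC6 was higher at 1669 and 1654 against 1879 and 1772 counts (log2 fold change 0.12, adjusted p = 0.0068, edgeR). That call was lost without RUNX3 KO replicate 1 (0.07, adjusted p = 0.229). CDT1, the second loader, had 879 and 828 counts in control and 873 and 982 in RUNX3 KO cells, overlapping groups (0.11, adjusted p = 0.0879). With a library left out, the log2 fold change of CDT1 ran from 0.03 to 0.18. GMNN encodes geminin, the protein that binds CDT1 and blocks a second round of loading. It had 984 and 973 counts in control and 1233 and 1342 in RUNX3 KO cells, higher by 0.38 on the log2 scale (SE 0.0470, adjusted p = 3.04e-11, edgeR). Both KO libraries were well above both controls, and its level went from 82.9 ± 0.635 to 108 ± 5.06 CPM (SD, n = 2), where CPM is a gene's count scaled to the size of its library, with TMM factors. The ratio of GMNN to CDT1 reads was 1.12 and 1.18 in control and 1.41 and 1.37 in RUNX3 KO libraries, so the inhibitor gained on its partner at the RNA level.

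The MCM2-7 ring is the motor of the replicative helicase and holds 1 copy of each subunit. Here 4 of its 6 genes were higher, 1 was lower and 1 did not pass. MCM2 had 2632 and 2649 counts in control and 3146 and 3185 in RUNX3 KO cells (log2 fold change 0.25, SE 0.0320, adjusted p = 1.63e-10, edgeR). MCM3 had 4633 and 4731 counts against 5538 and 5589 (0.24, SE 0.0270, adjusted p = 2.14e-12). MCM7, the most abundant of the 48, had 10176 and 10569 counts against 12048 and 12005 (0.20, SE 0.0231, adjusted p = 2.72e-12). For these 3 genes the KO libraries lay clear of the controls and the call held whichever library was left out. MCM6 was higher by 0.17 (adjusted p = 1.73e-06), and without RUNX3 KO replicate 2 its adjusted p lay just past the threshold.

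MCM4 had 5405 and 5365 counts in control and 5466 and 5409 in RUNX3 KO cells, and its estimate was 0.00 with an SE of 0.0266 (-0.02 when libraries were scaled by size alone or by upper quartile). At this depth that was among the most precise of the 48 estimates. MCM5 went the other way, with 2894 and 2888 counts in control and 2059 and 2090 in RUNX3 KO cells. It fell by 0.49 on the log2 scale (SE 0.0340, adjusted p = 3.3e-23, edgeR), from 245 ± 0.287 to 174 ± 0.427 CPM (SD, n = 2). In the fit of all 4 libraries this was the largest change of the 48 in either direction and lay far outside the spread of its replicates. With the median of its chromosomal neighbours subtracted, MCM5 was at 0.02 (adjusted p = 0.695).

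The balance of the ring's transcripts therefore differed between the cells. MCM5 took 10.1% of the reads of the 6 subunits in control replicate 1 (95% Wilson interval 9.73 to 10.4) and 9.87% in control replicate 2 (9.54 to 10.2). In the RUNX3 KO libraries it took 6.51% (6.24 to 6.79) and 6.58% (6.31 to 6.86). These intervals cover counting error only. Per kb of transcript, MCM5 was at 70.8 ± 0.0831 CPM in control cells, above MCM2 (65.1 ± 0.316) and MCM6 (68.1 ± 1.01), and at 50.4 ± 0.123 in RUNX3 KO cells, below every other subunit in both libraries. The highest subunit, MCM7, exceeded the lowest by 5.38- and 5.55-fold in control and by 8.20- and 8.05-fold in RUNX3 KO libraries.

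**Figure D2:**
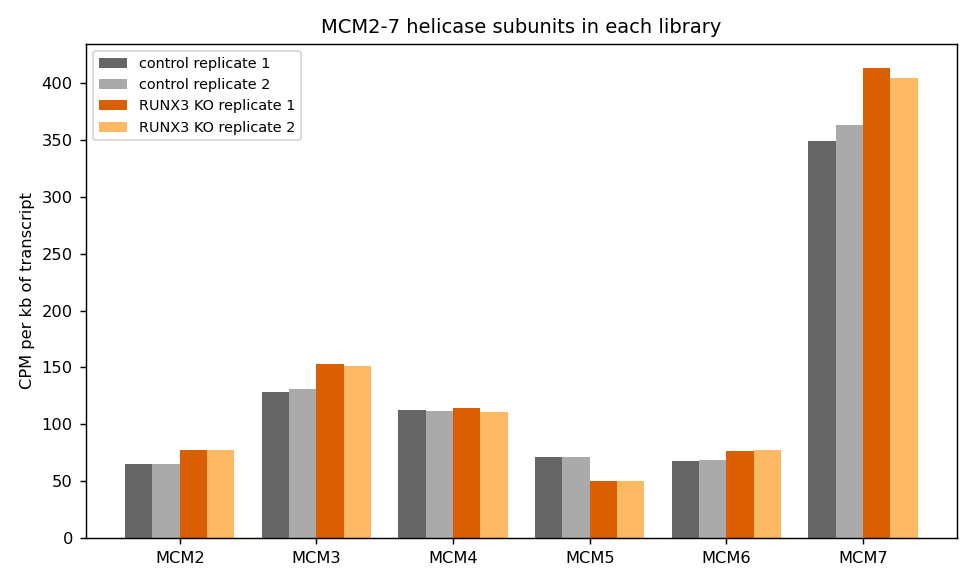
Level of each MCM2-7 subunit in each of the 4 libraries, as CPM per kb of transcript on a linear axis from 0, with a bar for each library. MCM7 stands highest at about 349 to 414 in all libraries, MCM4 stays at 111 to 114, and the MCM5 bars drop from 70.9 and 70.8 in control to 50.4 and 50.3 in RUNX3 KO cells.

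The factors that switch the loaded ring on split in both directions, and all 6 passed the test. CDC45, which joins MCM2-7 and GINS to form the CMG helicase, had 910 and 895 counts in control and 717 and 696 in RUNX3 KO cells, and fell by 0.37 on the log2 scale (SE 0.0543, adjusted p = 1.24e-08, edgeR). MCM10, which acts when the CMG helicase starts to unwind DNA, had 2118 and 2046 counts against 1779 and 1732 and fell by 0.26 (SE 0.0377, adjusted p = 7.13e-09). Both falls kept their call with any single library left out, but with the median of the chromosomal neighbours subtracted CDC45 turned to 0.20 (adjusted p = 0.00149) and MCM10 was at -0.01 (adjusted p = 0.846).

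The 4 GINS genes encode a complex that holds 1 copy of each subunit, yet they moved apart. GINS4 had 647 and 631 counts in control and 760 and 771 in RUNX3 KO cells (log2 fold change 0.25, SE 0.0577, adjusted p = 0.000179, edgeR). GINS2 had 1181 and 1222 counts against 1375 and 1398 (0.19, SE 0.0437, adjusted p = 0.000113). GINS1 had 864 and 823 counts against 754 and 779 (-0.15, SE 0.0541, adjusted p = 0.0153), and GINS3 had 586 and 639 against 548 and 548 (-0.17, SE 0.0641, adjusted p = 0.0189). The groups did not overlap for any of the 4. All of these calls were lost without RUNX3 KO replicate 1 (adjusted p 0.0581 for GINS2, 0.0510 for GINS4, 0.167 for GINS1 and 0.186 for GINS3) and without RUNX3 KO replicate 2 (0.0637, 0.0545, 0.137 and 0.242). GINS1 was also lost without control replicate 1 (0.157) and GINS3 without control replicate 2 (0.265). The ratio of CDC45 to GINS2 reads was 0.771 and 0.732 in control and 0.521 and 0.498 in RUNX3 KO libraries.

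The enzymes that synthesise DNA differed little. None of the 7 polymerase and primase genes was called by edgeR, DESeq2 or limma-voom, and 0 had an unadjusted p under 0.05. Their estimates ran from -0.11 for POLE2, an accessory subunit of the leading strand polymerase, to 0.10 for PRIM2, the large primase subunit. POLA1, the catalytic subunit of the polymerase that extends primers, had a log2 fold change of 0.09 (adjusted p = 0.17), and POLD1, the catalytic subunit of the lagging strand polymerase, one of 0.02 (adjusted p = 0.804), which was -0.00 with scaling by library size alone or by upper quartile. POLE, the catalytic subunit of the leading strand polymerase, had 1612 and 1807 counts in control and 1676 and 1640 in RUNX3 KO cells. It passed at -0.14 (adjusted p = 0.0104) without control replicate 1, and PRIM1 passed at 0.13 (adjusted p = 0.0474) without the same library. PRIM2 has a pseudogene copy whose reads the counting could have shared.

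Of the 6 genes of the sliding clamp and its loader, 5 were higher, and RFC1 and RFC4 lost that call in DESeq2. PCNA, the ring that tethers polymerases to DNA, had 3346 and 3373 counts in control and 3736 and 3727 in RUNX3 KO cells (log2 fold change 0.14, adjusted p = 5.95e-05, edgeR), and an adjusted p of 0.0540 without RUNX3 KO replicate 1. RFC5, a small subunit of the loader that opens this ring, had 648 and 659 counts against 827 and 872 (0.37, SE 0.0560, adjusted p = 3.32e-08). RFC3, another small subunit, had 1119 and 1170 counts against 1344 and 1427 (0.26, SE 0.0446, adjusted p = 4.48e-07), and an adjusted p of 0.0566 without RUNX3 KO replicate 2. RFC5 kept its call with any library left out. RFC1, the large subunit, was higher by 0.17 and RFC4 by 0.12. RFC1 was lost without either KO library (adjusted p 0.0713 and 0.0902), and RFC4 without control replicate 1 (0.0860), RUNX3 KO replicate 1 (0.156) or RUNX3 KO replicate 2 (0.0851). RFC4 also did not pass in edgeR with scaling by library size alone (adjusted p = 0.0536), by upper quartile (0.0560) or without a filter (0.0533). RFC2, the remaining subunit, had 1594 and 1576 counts against 1572 and 1574 and did not pass (-0.02, adjusted p = 0.651).

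Replication protein A, the trimer that coats single-stranded DNA, did not pass for any of its 3 genes in edgeR, DESeq2 or limma-voom, with log2 fold changes of 0.04 for RPA1, -0.05 for RPA2 and 0.10 for RPA3. RPA3 alone had an unadjusted p under 0.05, at 0.0486. In Okazaki fragment maturation, FEN1, the flap nuclease, had 2839 and 2909 counts in control and 2811 and 2901 in RUNX3 KO cells (-0.02, adjusted p = 0.599). LIG1, the ligase that seals the fragments, had 1061 and 968 counts against 920 and 937 and fell by 0.14 on the log2 scale (SE 0.0505, adjusted p = 0.0154, edgeR). That call was lost without control replicate 1 (-0.07, adjusted p = 0.355), RUNX3 KO replicate 1 (0.265) or RUNX3 KO replicate 2 (0.272).

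Of the G1/S regulators among the 48, CCNE1 changed and the others did not pass. CCNE1 encodes cyclin E1, the partner of CDK2 at the G1/S border, and was the least abundant of the 48 in reads. It had 225 and 209 counts in control and 296 and 294 in RUNX3 KO cells (log2 fold change 0.43, SE 0.0941, adjusted p = 6.81e-05, edgeR), which is 18.4 ± 0.953 against 24.8 ± 0.441 CPM (SD, n = 2). This was the largest rise of the 48 in the fit of all 4 libraries. With neighbourhood medians subtracted it was 0.34, below GMNN at 0.45 and RFC5 at 0.40, and without RUNX3 KO replicate 1 it was below GMNN at 0.43. It missed the threshold without RUNX3 KO replicate 1 (0.41, adjusted p = 0.0532) and without RUNX3 KO replicate 2 (0.45, adjusted p = 0.0517). CCNE2, which encodes cyclin E2, had 337 and 352 counts against 372 and 387 (0.13, adjusted p = 0.185). Its exons overlap those of INTS8 on the opposite strand by 1629 bases, and whether the counting used strand is not stated. E2F1 and E2F2 encode activator E2Fs. E2F1 had 787 and 860 counts against 844 and 816 (-0.00, SE 0.0543) and E2F2 391 and 392 against 380 and 406 (-0.01, SE 0.0764), so neither differed beyond its spread.

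The nucleotide supply genes all passed with small changes. TYMS, thymidylate synthase, had 5472 and 5513 counts in control and 6140 and 6451 in RUNX3 KO cells (log2 fold change 0.18, SE 0.0261, adjusted p = 3.94e-09, edgeR). ENOSF1 overlaps TYMS on the opposite strand by 967 exonic bases. RRM2, the small subunit of ribonucleotide reductase, was higher by 0.07 (adjusted p = 0.0181) and RRM1, the large subunit, fell by 0.08, at 4021 and 4071 counts against 3806 and 3899 (SE 0.0290, adjusted p = 0.0118). Both ribonucleotide reductase calls were lost without control replicate 2, RUNX3 KO replicate 1 or RUNX3 KO replicate 2, with adjusted p of 0.0865, 0.158 and 0.0978 for RRM2 and 0.0530, 0.128 and 0.106 for RRM1. RRM2 also did not pass in edgeR with scaling by library size alone (0.05, adjusted p = 0.0929) or by upper quartile (0.05, adjusted p = 0.0983). The ratio of RRM2 to RRM1 reads was 1.24 and 1.21 in control and 1.38 and 1.35 in RUNX3 KO libraries.

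UHRF1, which recognises hemimethylated DNA behind the fork and brings in the maintenance methyltransferase, had 1568 and 1486 counts in control and 1851 and 1925 in RUNX3 KO cells. It was higher by 0.29 on the log2 scale (SE 0.0394, adjusted p = 6.56e-10, edgeR), and the call held with any library left out. CLSPN, which encodes claspin, the adaptor of the replication checkpoint, had 1532 and 1548 counts against 1486 and 1516 and did not pass (-0.05, adjusted p = 0.318).

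**Figure D3:**
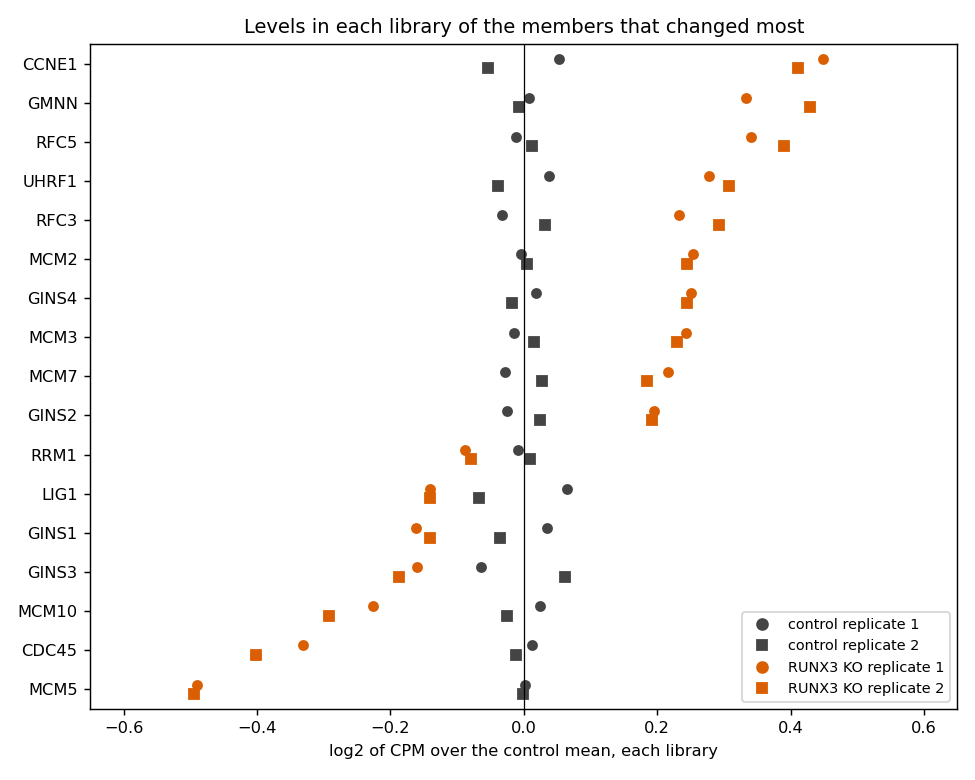
Level of the members with the largest changes in each library, as log2 of CPM over the control mean on the horizontal axis, with a point for each of the 4 libraries. The 2 libraries of a group lie close to each other for each gene, and the RUNX3 KO points sit to the right of the control points for CCNE1, GMNN and RFC5 and to the left for MCM5, CDC45 and MCM10.

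The 21 genes that did not pass bounded the size of any change. Their estimates ran from -0.11 to 0.18, and their 95% intervals lay within -0.24 to 0.35 on the log2 scale, so a change of 2-fold lay outside the interval of each.

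Per kb of transcript the 48 genes spanned a wide range of levels, from 3.75 ± 0.303 CPM for ORC4 to 356 ± 9.65 for MCM7 in control cells (SD, n = 2), with a median of 31.9. In RUNX3 KO cells the same genes were lowest and highest, at 4.25 ± 0.146 and 409 ± 6.36, with a median of 33.0. TYMS (288 ± 1.61 in control, 328 ± 7.18 in RUNX3 KO) and PCNA (223 ± 1.33 and 246 ± 3.61) were the most abundant after MCM7.

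The genes that fell most lay in chromosomal regions where most genes were lower. For each gene the 20 nearest tested genes on each side were taken from the GENCODE annotation on GRCh37 (hg19). MCM5, at chr22:35796127-35821424, had 40 of 40 neighbours lower, at a median of -0.51 on the log2 scale, beside its own -0.49. CDC45, at chr22:19466980-19508135, also had 40 of 40 lower, with a median of -0.57, beside its own -0.37. The 2 sets of neighbours shared no gene, and 286 of the 294 tested genes of chromosome 22 were lower, with a median of -0.52. MCM10, at chr10:13203558-13253110, had 36 of 40 neighbours lower and a median of -0.25, beside its own -0.26. POLE2, on chromosome 14, had 37 of 40 lower and a median of -0.25, beside its own -0.11.

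Subtracting the neighbourhood median ended the falls of MCM5 and MCM10 and put CDC45 above the median of its neighbours. The falls of LIG1 and RRM1 also ended, at -0.02 (adjusted p = 0.730) and -0.00 (adjusted p = 0.933). GINS1 and GINS3 stayed lower at -0.18 and -0.26, in neighbourhoods with medians of 0.03 and 0.08. The number of genes lower went from 7 to 5 and the number higher from 20 to 22, while over all 12967 tested genes 2914 were lower and 2852 higher (44.5%). RFC2 (-0.15), RPA2 (-0.12) and CLSPN (-0.13) came in as lower, CDC45, ORC4 (0.21) and PRIM1 (0.17) as higher, and ORC3 left (0.13, adjusted p = 0.0672). The median was subtracted as a fixed value, so calls after subtraction leave out the scatter among the neighbours. Of 40 neighbours each, 12 lay at or below RFC2, 11 at or below RPA2 and 12 at or below CLSPN. For CDC45, ORC4 and PRIM1 the numbers at or below were 34, 32 and 30. What sets the level of these neighbourhoods was not tested.

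For the 20 higher genes the neighbourhood medians lay closer to 0. They ran from -0.0632 to 0.0896, with a median of -0.0045, while their own log2 fold changes ran from 0.07 to 0.43. CCNE1 and UHRF1 had the most neighbours higher, 29 of 40 each, with medians of 0.09 and 0.09, and subtraction put them at 0.34 and 0.21. Across the 48 genes, Pearson's r between a gene's log2 fold change and its neighbourhood median was 0.615. It was 0.0653 over the 44 genes left without MCM5, MCM10, CDC45 and POLE2. Those 4 were set aside by their neighbourhood medians, each below -0.2. The narrower range alone can lower r, so the second value does not show the other genes to be unrelated to their neighbours. These r values are descriptions across genes, which are not independent replicates and share the same 4 libraries.

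**Figure D4:**
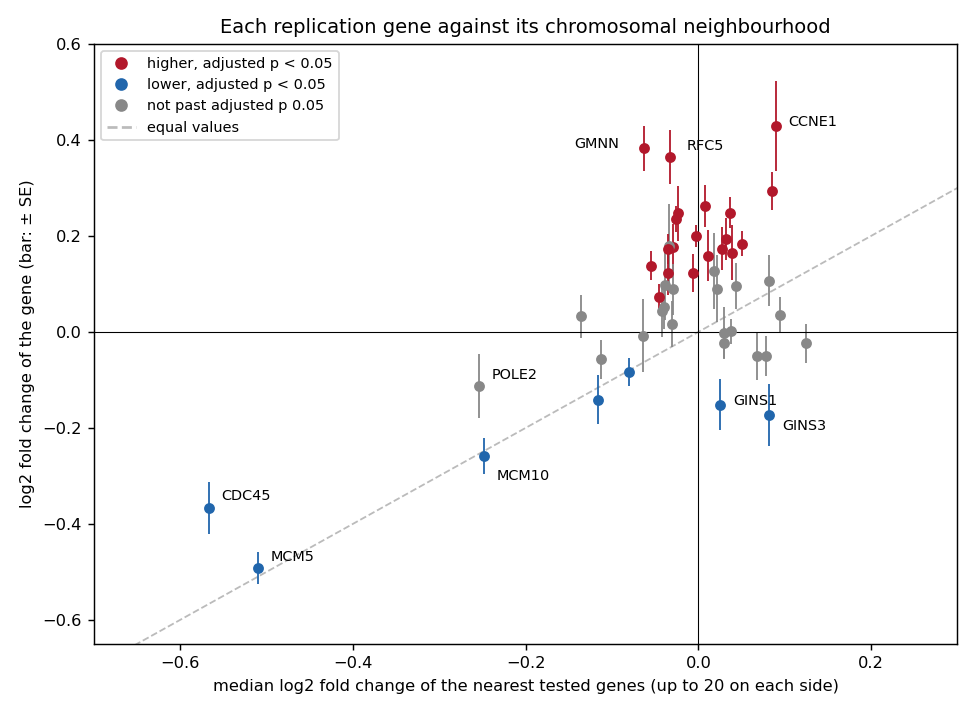
Log2 fold change of each of the 48 genes (vertical axis, bars ± SE) against the median log2 fold change of its nearest tested genes (horizontal axis). MCM5 and CDC45 lie far to the left with neighbourhood medians of -0.51 and -0.57, MCM10 and POLE2 lie at -0.25, and the other 44 genes lie between -0.136 and 0.12.

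Read against the promoter stretches given above, 10 of the 19 higher genes with a RefSeq window held the E2F letters, as did 1 of 6 lower and 6 of 17 that did not pass. Among these were MCM3, MCM7, RFC3, GINS2 and UHRF1, whose stretches are printed, and also GMNN, MCM6, PCNA, TYMS and ORC3. LIG1 was the lower gene. Over all 511 tested genes with the letters the median log2 fold change was 0.03, and over the 17 it was 0.17. CCAAT was found before 14 of the 19 higher, 4 of the 6 lower and 7 of the 17 others, and the RUNX letters before 2, 1 and 5. These counts are descriptions, with no test.

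The genes around this machinery were read from 3 further lists. Of 28 tested G1/S regulators outside the 48, 13 were higher and 4 lower by edgeR's adjusted p (60.7% in either direction, beside 48.9% of all tested genes), with a median log2 fold change of 0.09. CDKN2A, which encodes the CDK4/6 inhibitor p16 and ARF, was the only gene of the 3 lists past 2-fold, and lay at that limit. With library size alone and upper-quartile scaling it was at 0.98, without control replicate 1 at 0.97 and without RUNX3 KO replicate 2 at 0.99, under the limit in each case. It had 745 and 776 counts in control and 1514 and 1560 in RUNX3 KO cells (1.00, SE 0.0474, adjusted p = 7.36e-34), in a neighbourhood on chromosome 9 with a median of 0.72, and was at 0.28 with that subtracted. CDKN2B, its neighbour and another CDK4/6 inhibitor, had 82 and 55 counts against 113 and 99 (0.62, adjusted p = 0.00102, neighbourhood 0.67), and missed the threshold without control replicate 2 (0.35, adjusted p = 0.121), RUNX3 KO replicate 1 (0.257) or RUNX3 KO replicate 2 (0.15). With its neighbourhood subtracted it was at -0.05 (adjusted p = 0.840). CCND3, which encodes the G1 cyclin D3, was higher by 0.54 (adjusted p = 9.55e-12). CDKN1A, which encodes the CDK inhibitor p21, had 138 and 132 counts against 88 and 90 and fell by 0.61 (adjusted p = 0.000127). CDKN2C, which encodes the inhibitor p18, fell by 0.22, with an adjusted p of 0.0595 without RUNX3 KO replicate 2. E2F7, a repressor E2F, fell by 0.19, with an adjusted p of 0.0577 without RUNX3 KO replicate 1 and 0.118 without RUNX3 KO replicate 2. DESeq2 called neither E2F7 (adjusted p = 0.0842) nor CDKN2B (0.0835). Without RUNX3 KO replicate 1 this list had 10 genes higher and 2 lower, beside 22.8% of all tested genes called, and without RUNX3 KO replicate 2 it had 6 and 1, beside 20.1%.

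Of 34 other replication factors, 14 were higher and 5 lower (55.9%, beside 48.9% of all tested genes), and the list's median was 0.05 on the log2 scale. TICRR, which brings TopBP1 to origins and is counted in the tables under an older symbol, was higher by 0.53 (adjusted p = 1.09e-16, edgeR) in a chromosome 15 neighbourhood with a median of 0.65, and MTBP, its partner in the same step, by 0.38 (adjusted p = 9.29e-19) in one with a median of 0.02. With the neighbourhood subtracted TICRR was at -0.12 (adjusted p = 0.0360). Of the 40 neighbours of TICRR, 15 had a log2 fold change at or below its own. DONSON, a fork and initiation factor, was higher by 0.28. DNMT1, the maintenance methyltransferase that UHRF1 brings to new DNA, had 9312 and 9242 counts in control and 6675 and 6928 in RUNX3 KO cells and fell by 0.46 (SE 0.0243, adjusted p = 1.15e-30), so it and UHRF1 moved in opposite directions. In its neighbourhood on chromosome 19, 35 of 40 genes were lower, with a median of -0.36, and DNMT1 was at -0.10 with that subtracted. RNASEH2A, the catalytic subunit of RNase H2, fell by 0.32, with an adjusted p of 0.0562 without RUNX3 KO replicate 1. Of its neighbours 33 of 40 were lower, with a median of -0.19, and it was at -0.14 with that subtracted. CHTF8, a subunit of an alternative clamp loader, fell by 0.28. The list had 4 genes higher and 2 lower without RUNX3 KO replicate 1 (beside 22.8% of all tested genes called), 4 and 3 without RUNX3 KO replicate 2 (20.1%), and 8 and 4 without control replicate 1 (42.1%).

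Of 31 mitosis and G2/M genes, 16 were higher and 4 lower (64.5%, beside 24.5% higher, 24.4% lower and 48.9% in either direction of all tested genes), and the list's median was 0.12 on the log2 scale. CCNB2 and CCNB1, the B-type cyclins that drive mitosis with CDK1, were higher by 0.60 (adjusted p = 1.13e-20, edgeR) and 0.34 (adjusted p = 9.17e-20), and KIF23, a kinesin of cytokinesis, by 0.34. CCNB2 and KIF23 lie on chromosome 15 in neighbourhoods with medians of 0.26 and 0.23, where 32 and 28 of 40 genes were higher, and CCNB1 in one with a median of 0.06. With these subtracted CCNB2 was at 0.34 and KIF23 at 0.11. BUB1, a spindle checkpoint kinase, fell by 0.31. CENPE, a kinetochore kinesin, fell by 0.18 and BIRC5, survivin, by 0.09. Both calls were lost without RUNX3 KO replicate 1 (adjusted p 0.163 and 0.374) or RUNX3 KO replicate 2 (0.109 and 0.110), and BIRC5 also without control replicate 2 (0.203) and in DESeq2 (0.249). The list had 12 genes higher and 2 lower without RUNX3 KO replicate 1 (beside 22.8% of all tested genes called) and 11 and 1 without RUNX3 KO replicate 2 (20.1%). Whether these lists differ from the 48 genes was not tested.

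**Figure D5:**
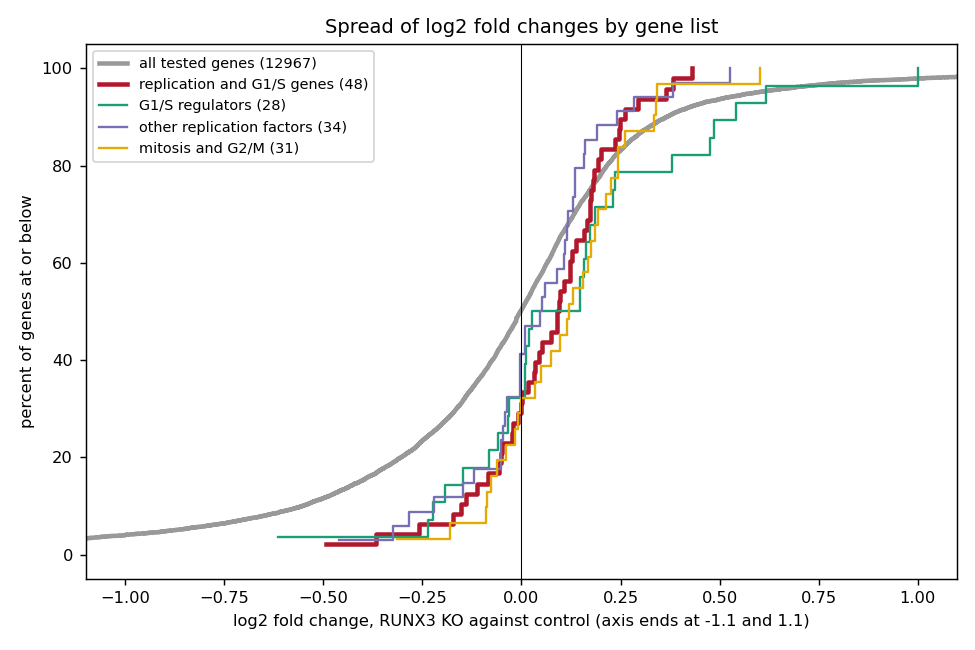
Percent of genes at or below each log2 fold change (RUNX3 KO against control) for the 48 genes, the 3 further lists and all 12967 tested genes. The curve of the 48 genes is steeper than that of all tested genes and is centred at 0.09, while that of all tested genes is centred at -0.0021.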

How the data were processed

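The RNA-seq series held 2 control and 2 RUNX3 KO libraries of HGC-27 cells. The authors deposited raw counts of reads per gene symbol, 1 table per library, without normalization. Per the labels' processing notes, reads were converted with bcl2fastq, aligned with HISAT2 2.1.0 to hg19 and counted with HTSeq, whereas the paper's methods name STAR and featureCounts with GENCODE genes. The medium, RNA kit and library preparation also differ between these sources. The labels name a stranded kit, and how strand was set in the counting is not given in the sources used here. Overlapping genes could therefore share reads. Each table held 5 rows without a gene, with 27.8% and 28.1% of all counts in control and 26.2% and 25.9% in RUNX3 KO libraries, which stayed out of library sizes and tests.

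The analysis used edgeR 4.0.16 under R 4.3.3. The filter was filterByExpr (minimum count 10, minimum total 15), which left 12967 of 25559. Libraries were scaled by TMM (factors 0.993 to 1.01), and the 2 groups were compared by quasi-likelihood (glmQLFit, glmQLFTest, with a prior count of 0.125), with p-values adjusted by Benjamini-Hochberg across the tested genes. Standard errors were obtained from each estimate and the root of its F value. CPM are counts scaled to library size with TMM factors, and levels per kb were divided by the length of the GENCODE canonical transcript. Positions came from GENCODE on GRCh37 for 12210 tested genes (94.2%), through the same symbol or a synonym. Promoter windows came from RefSeq. Alternatives were other scalings, filters and minimum folds, DESeq2 1.42.0, limma-voom (limma 3.58.1), a replicate block and each library left out. A further alternative subtracted the median of up to 40 neighbours. An assumed coefficient of variation and the subtraction for the 3 further lists were added after seeing the data. Steps were tested on simulated counts. No multiple-mapping or GC check was made.

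The 48 genes and all lists were chosen with earlier results of these data known. All 48 are accounted for. Counts per library were to be given for up to 10 rising and 10 falling genes with the largest changes, and values for up to 3 of each from the 3 further lists. Counts of other genes of the 48 were added after their values were seen. Between 209 and 12048 counts per gene and library, and 11731401 to 12110876 reads on genes per library, set the precision.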

Additional observations from a re-analysis of the deposited data

How the results depend on the processing

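The limits are those of 2 libraries a group, with a spread so small that changes of under 1.1-fold passed the test. Of the 48 genes, 7 were lower and 20 higher. The numbers of lower and higher genes were 7 and 20 with DESeq2's size factors, a minimum of 10 counts in every library, and limma-voom, and 7 and 18 with scaling by library size alone or by upper quartile, where all tested genes went from 3158 lower and 3183 higher to 3444 and 2877, and to 3441 and 2859. Lower genes were 4 without a filter (where 27.8% of 17650 genes were called, against 48.9% of 12967), 3 with DESeq2 and 1 with the assumed coefficient of variation of 10% (chosen after seeing the data), and higher genes were 13 and 0 with the last 2. The cause was not tested, beyond the larger spread that the last assumes. The number past 2-fold was 0 in every alternative run. With a library left out, 3 to 6 were lower, 9 to 20 higher, and the median ran from 0.0626 to 0.113. The median, 0.09, was 0.07 with library size alone (0.0731) and upper quartile (0.0724), 0.0866 with at least 10 counts in every library, and 0.123 with neighbourhoods subtracted. G1/S regulators were 4 lower and 13 higher. With DESeq2 2 were lower, with the assumed variation 1 lower and 5 higher, and with a library left out 1 to 4 lower and 6 to 13 higher. Other replication factors were 5 lower and 14 higher. There were 7 higher without a filter (27.8% of all genes called), 3 lower and 6 higher with DESeq2, 1 and 1 with the assumed variation, 2 to 5 lower and 4 to 11 higher with a library left out. Mitosis and G2/M genes were 4 lower and 16 higher. There were 2 lower without a filter (27.8%), 2 lower with DESeq2, 0 lower and 1 higher with the assumed variation, 1 to 4 lower and 11 to 16 higher with a library left out.

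Signs that reversed were mostly of genes near 0. With library size alone MCM4 was at -0.0191 and POLD1 at -0.00343, with upper quartile at -0.0198 and -0.00416, and with at least 10 counts in every library MCM4 was at -0.00566. Without a filter E2F1 was at 0.000676. With the neighbourhood subtracted MCM4 was at -0.0372, MCM5 0.0185, CDC45 0.201, POLE 0.0557, POLE2 0.141, RPA1 -0.0592, E2F2 0.0562, CDKN2B -0.0484 and TICRR -0.12. With a library left out, the log2 fold change ran from -0.0334 to 0.205 for ORC5, -0.0303 to 0.121 for ORC6, -0.0176 to 0.0216 for MCM4, -0.00622 to 0.111 for POLA2, -0.0563 to 0.1253 for PRIM1, -0.0429 to 0.0767 for POLD1, -0.137 to 0.0256 for POLE, -0.00767 to 0.0787 for RPA1, -0.113 to 0.011 for RPA2, -0.0643 to 0.0617 for E2F1 and -0.043 to 0.0284 for E2F2.

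Control and RUNX3 KO libraries share replicate numbers, but nothing says that a number marks a shared batch. The difference between replicates 1 and 2 in control cells correlated with that in RUNX3 KO cells at r = 0.0257 across 12967 genes. A replicate block gave 7 lower and 20 higher genes of the 48 and a median of 0.09, and changed no call among them.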
